A study of Mus musculus with 12 samples.

Results

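The proteasome genes described here are the subunits of the proteasome, its activators, its inhibitor and its assembly chaperones, whose symbols run from Psma to Psmg. A gene was taken where a probe set was annotated to it alone and its symbol was Psm, a letter from a to g and a number; of several probe sets the one with the highest mean over the 12 arrays stood for the gene. This gave 47 of the 18194 genes on the array. Psme2, which encodes the beta subunit of the PA28 activator, was not among them, because its probe set is annotated to more than 1 gene, so that the immunoproteasome genes and PA28 are represented by Psmb8, Psmb9, Psmb10 and Psme1. These 4 were set against 32 constitutive subunits of the 20S core and the 19S cap. RNA of whole pancreas was measured on 12 arrays, 1 array per mouse and 3 per group. The groups were C57BL6/J mice with chronic pancreatitis induced by cerulein, C57BL6/NHsd mice with the same induction, C57BL6/J mice injected with saline and C57BL6/NHsd mice injected with saline, called J cerulein, NHsd cerulein, J saline and NHsd saline. All mice were 8 weeks old per the labels, which give the saline mice as female and no sex for the cerulein mice; the dose and schedule of cerulein, an analogue of cholecystokinin that makes acinar cells secrete, are not given in the sources used here.

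The proteasome degrades proteins that carry ubiquitin. Its 20S core is a barrel in which rings of alpha subunits close the ends and rings of beta subunits hold the cutting sites, and the 19S cap binds ubiquitin chains, unfolds the substrate with a ring of ATPases and feeds it into the core. In immune cells, and in other cells under interferon gamma, the catalytic subunits Psmb5, Psmb6 and Psmb7 are replaced in newly built cores by Psmb8, Psmb9 and Psmb10, and PA28 can take the place of the cap; this immunoproteasome cuts peptides suited to presentation on MHC class I. In the acinar cells of the pancreas, which make large amounts of secretory protein, the proteasome also removes misfolded protein sent back from the endoplasmic reticulum.

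Promoter windows are shown for the immunoproteasome and PA28 genes with a window in RefSeq that held a searched motif, and for Psmb5, the constitutive counterpart of Psmb8. Each runs from 250 bases before to 50 bases after the gene's start in RefSeq (GRCm38.p6), read 5′ to 3′ on the gene's strand. Capitals mark a gamma-activated site (TTCNNNGAA) in Psmb8 at chr17:34197945-34198244, plus strand; the reverse of a CCAAT box in Psmb9 at chr17:34187281-34187580, minus strand; the reverse of an interferon-stimulated response element core (GAAANNGAAA) in Psme1 at chr14:55578244-55578543, plus strand; and an antioxidant response element core (TGACNNNGC) in Psmb5 at chr14:54617946-54618245, minus strand.
Psmb8: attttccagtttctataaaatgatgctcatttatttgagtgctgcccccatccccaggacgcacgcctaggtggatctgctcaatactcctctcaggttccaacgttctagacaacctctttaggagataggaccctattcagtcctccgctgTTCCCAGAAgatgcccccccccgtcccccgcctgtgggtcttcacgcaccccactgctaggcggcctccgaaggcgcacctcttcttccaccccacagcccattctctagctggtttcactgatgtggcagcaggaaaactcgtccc
Psmb9: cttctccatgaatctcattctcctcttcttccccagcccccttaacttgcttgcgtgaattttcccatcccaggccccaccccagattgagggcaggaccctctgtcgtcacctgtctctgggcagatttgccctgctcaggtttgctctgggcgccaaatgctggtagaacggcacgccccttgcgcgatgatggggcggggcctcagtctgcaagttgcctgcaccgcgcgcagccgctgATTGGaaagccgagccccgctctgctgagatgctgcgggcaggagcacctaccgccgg
Psme1: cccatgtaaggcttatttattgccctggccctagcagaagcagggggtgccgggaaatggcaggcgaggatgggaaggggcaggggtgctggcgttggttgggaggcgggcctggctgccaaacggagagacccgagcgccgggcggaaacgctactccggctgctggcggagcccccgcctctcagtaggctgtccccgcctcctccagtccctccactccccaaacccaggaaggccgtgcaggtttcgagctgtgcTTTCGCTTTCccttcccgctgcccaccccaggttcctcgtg
Psmb5: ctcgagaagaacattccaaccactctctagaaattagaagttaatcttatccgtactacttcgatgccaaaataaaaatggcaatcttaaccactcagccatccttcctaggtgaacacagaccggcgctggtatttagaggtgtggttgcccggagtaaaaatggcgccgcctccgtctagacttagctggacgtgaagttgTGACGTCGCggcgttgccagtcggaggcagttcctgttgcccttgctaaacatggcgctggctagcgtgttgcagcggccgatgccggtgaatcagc
The motif lies 97 to 89 bases before the start in Psmb8, 8 to 4 bases before it in Psmb9, 9 to 18 bases after it in Psme1 and 47 to 39 bases before it in Psmb5. The window of Psmb9 overlaps by 275 bases that of Tap1, the peptide transporter gene that is read from the other strand. Windows were found for 39 of the 47 genes. The interferon-stimulated response element core was in 5 of the 39 (12.8%), against 3.44% of all 32851 windows, namely in Psmb3, Psmd4, Psmd9, Psme1 and Psmg4. The gamma-activated site was in 3 (7.69%, against 8.3% of all windows), which were Psmb8, Psmd2 and Psmg1. The antioxidant response element core was in 6 (15.4%, against 12.4%), with Psmb6, the constitutive counterpart of Psmb9, among them besides Psmb5. CCAAT was in 14 (35.9%, against 37.4%). The window of Psmb10 held none of these motifs. Both strands were searched, and a match is a stretch of letters, not a bound site.

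The values are log2 signals, and genes whose probe set was above log2 4 on 3 or more arrays were tested. Of the 47 proteasome genes, 44 passed, 31 of them constitutive. Psma8, the alpha subunit of the testis, reached at most 3.11, and Psmb11, the catalytic subunit of the thymus, at most 2.72. Psmg4, a chaperone of core assembly, exceeded log2 4 on 1 array, J cerulein replicate 1, at 5.20. The share of probe sets above log2 4 was 30.3% ± 0.67 on the 6 cerulein arrays and 26.7% ± 0.31 on the 6 saline arrays (SD). The median of the 8505 genes tested was 6.12 ± 0.09 on cerulein arrays and 5.54 ± 0.08 on saline arrays, and the median change of a gene was 0.49 on the log2 scale. Spiked controls were lower on cerulein arrays, at 7.03 ± 0.14, against 8.84 ± 0.41 on saline arrays, over 18 hybridization probe sets, and at 6.75 ± 0.52, against 9.16 ± 0.38, over 27 poly-A probe sets. Their part in the results was not tested. J cerulein replicate 1 correlated least with the other arrays of its group, with a mean r of 0.951 against 0.969 to 0.985 for the other arrays, and 30 of the 44 genes had their highest value on it, against 29.9% of all tested genes.

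Most transcripts of the proteasome were higher in the pancreas after cerulein, in the values as deposited. As the mean of both substrains, 39 of the 44 genes rose (88.6%), where 59.4% of all tested genes rose, and 1 fell, where 10.1% of all fell (limma, Benjamini-Hochberg adjusted p below 0.05). The median change was 0.78 on the log2 scale, against 0.49 over all tested genes, and 37 of the 44 changed by more than that median. Values of the cerulein arrays lay entirely above those of the saline arrays for 32 of the 44 genes (72.7%), against 40.0% of all tested genes, and entirely below for 0, against 4.94%. In either direction 40 were called, against 69.4% of all. The number of risers depends on the scaling. With equal array medians, 18 proteasome genes rose and 4 fell, against 26.6% and 36.1% of all tested genes (62.7% in either direction), and after quantile normalization 22 rose and 3 fell, against 28.0% and 34.1% (62.2% in either direction). The change was 1.19 at the median of the 7 alpha subunits, 0.83 for the 4 structural beta subunits, 0.94 for the 3 constitutive catalytic subunits, 1.02 for the 3 immunoproteasome subunits with values under log2 4 set to 4 (their middle value is the bound of Psmb9), 0.73 for the 6 ATPases and 0.64 for the 11 other subunits of the cap. In bulk tissue, fewer cells of a type and less RNA per cell cannot be told apart.

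**Figure D1:**
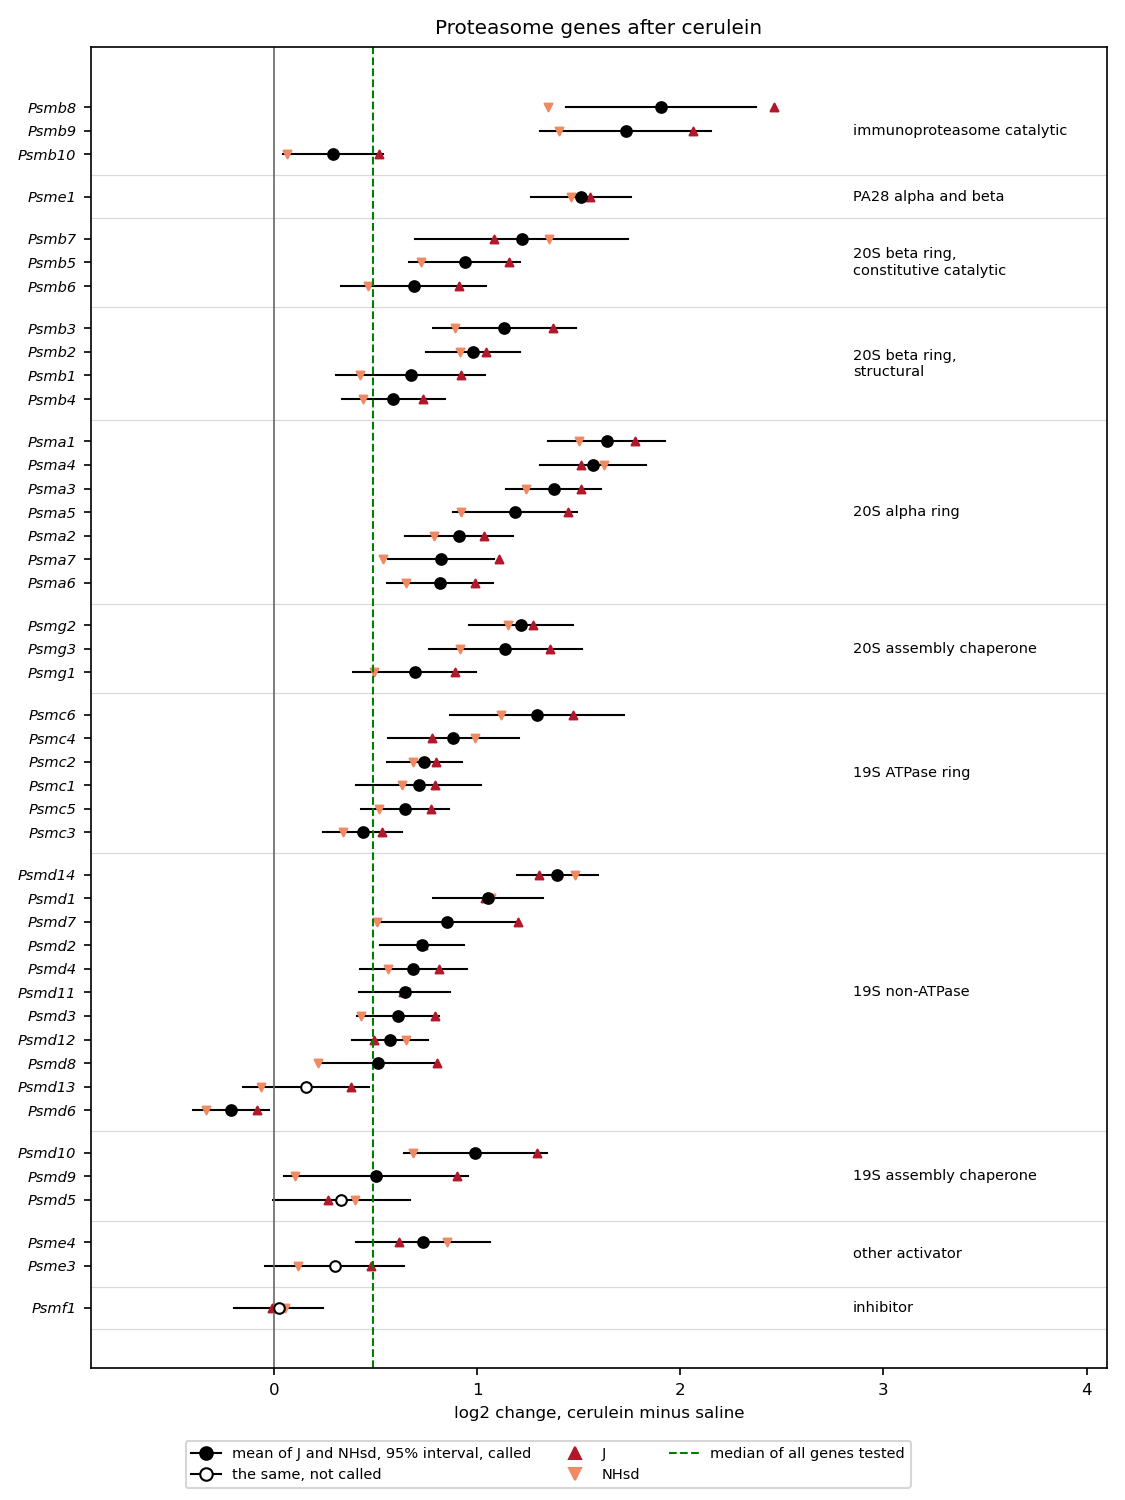
Log2 change, cerulein minus saline, of the 44 tested proteasome genes by role. Black points are the mean of both substrains with its 95% interval, filled where the adjusted p was below 0.05, triangles give each substrain, and the green line is the median change of all genes tested (0.49); 37 points lie to its right. Values are as deposited; with equal array medians 18 genes rose and 4 fell.

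Psmb8, the immunoproteasome subunit at the chymotrypsin-like site, measured log2 7.81, 6.90 and 6.25 in J cerulein, 6.10, 5.81 and 6.33 in NHsd cerulein, 4.60, 4.49 and 4.49 in J saline and 4.85, 4.85 and 4.49 in NHsd saline. All 6 cerulein arrays were above all 6 saline arrays, and J cerulein replicate 1 was the highest. Psmb8 rose by 1.90 ± 0.21 (SE) on the log2 scale, 3.74-fold (limma adjusted p = 7.99e-06), by 2.46 in J (3.8e-05) and by 1.35 in NHsd (0.00255). Of its saline values, 5 of 6 were identical to another in every deposited digit, 3 at 4.49 and a pair at 4.85. Values shared by 3 or more arrays occurred in 11.5% of all tested genes and in 4 of the 44 proteasome genes (Psmb8, Psmb9, Psmc3 and Psmf1); whether such values are a lower limit of the probe set was not tested.

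Psmb9, the immunoproteasome subunit that replaces Psmb6, measured 6.07, 5.33 and 4.75 in J cerulein, 4.67, 4.35 and 4.96 in NHsd cerulein, 3.31, 3.33 and 3.33 in J saline and 3.33, 3.38 and 3.07 in NHsd saline. It was above log2 4 on all cerulein arrays and on none of the saline arrays, so that it passed the filter through the cerulein arrays alone, had to differ, and has only a lower bound. Psmb9 was at least 2.61-fold higher in J cerulein than in J saline and at least 1.58-fold higher in NHsd cerulein than in NHsd saline. Its place among the 39 genes that rose is no separate support.

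Psmb10, which replaces Psmb7 at the trypsin-like site, measured 10.50, 10.06 and 10.10 in J cerulein, 10.19, 9.69 and 10.12 in NHsd cerulein, 9.69, 9.70 and 9.71 in J saline and 9.96, 9.81 and 10.04 in NHsd saline. The groups overlapped in NHsd, where the lowest value was on a cerulein array, and did not in J. Its change of 0.29 ± 0.11 (SE, limma adjusted p = 0.0358) was below the median of all genes, and it turned to -0.29 (adjusted p = 0.0284) with equal array medians and to -0.17 (0.145) after quantile normalization. As deposited it was 0.52 in J (adjusted p = 0.0155) and 0.06 in NHsd (0.761), and the rise in the mean of both substrains was lost in 8 of the 12 fits without 1 array.

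Psme1, the alpha subunit of PA28, measured 8.62, 8.63 and 8.24 in J cerulein, 8.36, 8.16 and 8.31 in NHsd cerulein, 7.02, 6.78 and 7.01 in J saline and 7.001, 6.85 and 6.59 in NHsd saline. The cerulein arrays lay more than 1 log2 unit above every saline array. The rise was 1.51 ± 0.11 (SE, limma adjusted p = 2.69e-07), 1.56 in J and 1.46 in NHsd, and stayed at 0.93 (4.43e-06) with equal array medians.

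**Figure D2:**
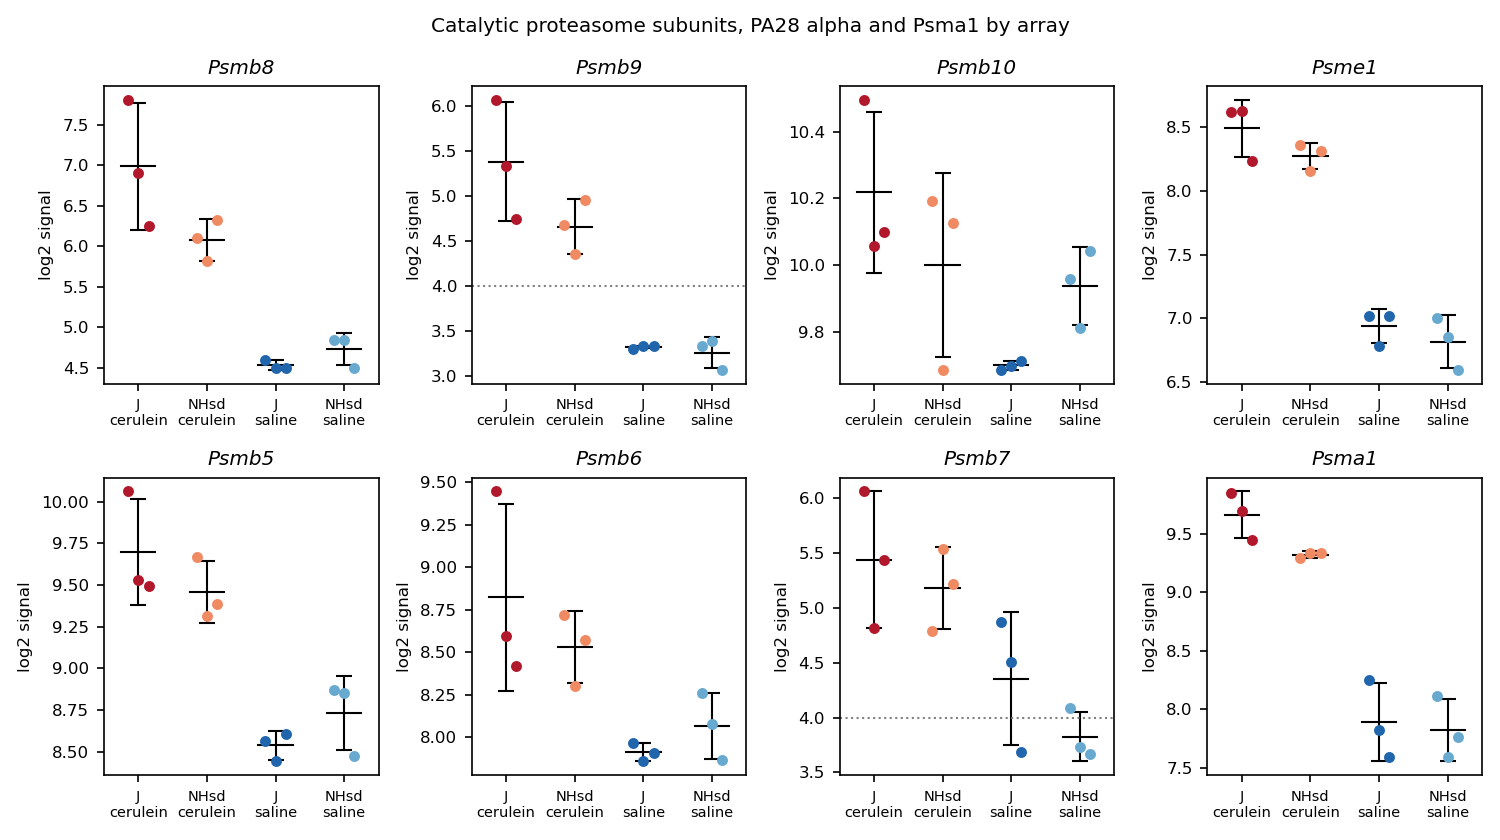
Log2 signal by array of the immunoproteasome subunits, Psme1, the constitutive catalytic subunits and Psma1. Dots are arrays, bars the mean ± SD of 3 arrays per group, and the dotted line marks log2 4 for Psmb9 and Psmb7; each panel has its own axis. Psmb8 lies between 5.81 and 7.81 on cerulein arrays and between 4.49 and 4.85 on saline arrays, while Psmb10 overlaps in NHsd.

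The constitutive catalytic subunits rose as well. Psmb5, the chymotrypsin-like subunit, measured 10.06, 9.53 and 9.50 in J cerulein, 9.67, 9.32 and 9.38 in NHsd cerulein, 8.57, 8.44 and 8.61 in J saline and 8.87, 8.85 and 8.48 in NHsd saline. The treatments did not overlap, and the rise was 0.94 ± 0.13 (SE, limma adjusted p = 3.16e-05). Psmb6, the caspase-like subunit, measured 9.45, 8.60 and 8.42 in J cerulein, 8.72, 8.30 and 8.57 in NHsd cerulein, 7.96, 7.86 and 7.91 in J saline and 8.26, 8.08 and 7.87 in NHsd saline. Its cerulein arrays were also all higher than its saline arrays, by 0.69 ± 0.16 (SE, limma adjusted p = 0.00241), although the change of 0.46 in NHsd alone did not pass the test (0.107); under equal array medians Psmb6 changed by 0.11 (0.555). Psmb7, the trypsin-like subunit, was dim, with 6.07, 4.82 and 5.44 in J cerulein, 4.79, 5.54 and 5.22 in NHsd cerulein, 4.88, 4.50 and 3.69 in J saline and 4.09, 3.73 and 3.67 in NHsd saline. It overlapped in J, and 3 saline arrays lay under log2 4, so that the size of its rise of 1.22 ± 0.24 (SE, limma adjusted p = 6.75e-04) is inexact.

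To compare a subunit of the immunoproteasome with the one it replaces, the difference of their log2 signals was taken within each array, which cancels a shift common to both genes. Such a difference shows unequal change and not which transcript was more abundant. Psmb8 minus Psmb5 was -2.25, -2.62 and -3.25 in J cerulein, -3.57, -3.50 and -3.06 in NHsd cerulein, -3.97, -3.95 and -4.11 in J saline and -4.03, -4.005 and -3.98 in NHsd saline. The saline arrays of both substrains lay close together and below every cerulein array. The treatments differed by 0.97 (exact permutation test over 924 assignments, two-sided, p = 0.00216, the smallest possible, and 0.00325 adjusted over the 3 pairs). The adjustment counts the pair of Psmb9, which passed the filter through the cerulein arrays alone. Within a substrain, 3 arrays against 3 cannot give a p under 0.1. There the treatments differed for Psmb8 minus Psmb5 by 1.30 in J and 0.63 in NHsd, both at that smallest p by the exact test.

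Psmb9 minus Psmb6 can be given only as a bound, since Psmb9 lay under log2 4 on every saline array. As deposited it was -3.65 ± 0.31 on cerulein arrays and -4.70 ± 0.15 on saline arrays (SD, n = 6 each), a difference of 1.04 that is inexact for this reason. With values under log2 4 set to 4, a setting chosen after the data were seen, it was -3.65 ± 0.31 on cerulein arrays. On saline arrays it was -3.99 ± 0.15, a difference of 0.33. The treatments then overlapped, and 4 of the 6 cerulein arrays lay above every saline array. No p is given for this pair, because Psmb9 passed the filter through the cerulein arrays alone and had to differ.

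The trypsin-like pair went the other way. Psmb10 minus Psmb7 was 4.80 ± 0.48 on cerulein arrays and 5.73 ± 0.60 on saline arrays (SD, n = 6 each), with overlap, and differed by -0.93 (exact permutation p = 0.0216, adjusted 0.0216). The difference was -0.57 in J (exact p = 0.3) and -1.29 in NHsd (exact p = 0.1), and 3 saline values of Psmb7 lay under log2 4. With these values set to 4, the treatments differed by -0.78, again with overlap, so that the size of the difference is inexact.

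**Figure D3:**
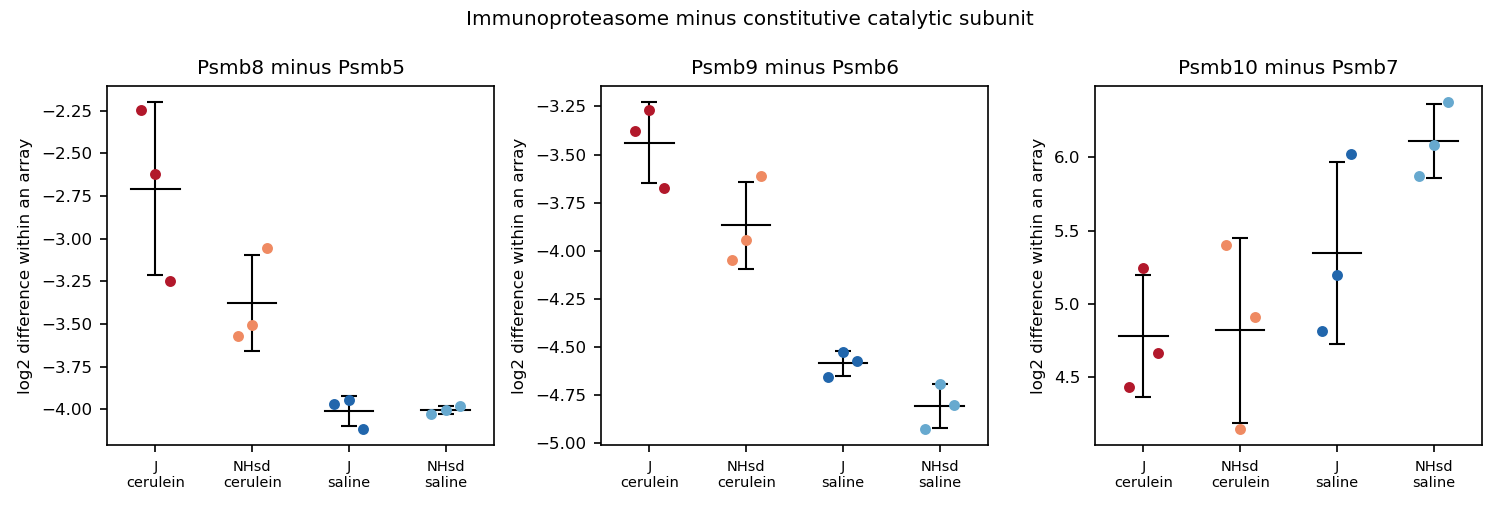
Log2 signal of an immunoproteasome subunit minus that of the constitutive subunit it replaces, within each array; dots are arrays and bars the mean ± SD of 3 arrays per group. Psmb8 minus Psmb5 is higher on all 6 cerulein arrays than on any saline array. Psmb9 minus Psmb6 is drawn as deposited, with Psmb9 under log2 4 on all 6 saline arrays, and overlaps when these values are set to 4; Psmb10 minus Psmb7 is lower on average, with overlap.

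As a description over the sets, the mean log2 signal of Psmb8, Psmb9, Psmb10 and Psme1 was 7.77 ± 0.46 in J cerulein, 7.25 ± 0.22 in NHsd cerulein, 6.12 ± 0.04 in J saline and 6.19 ± 0.12 in NHsd saline (SD, n = 3 each). The mean of the 31 constitutive subunits was 8.86 ± 0.20 in J cerulein, 8.63 ± 0.04 in NHsd cerulein, 7.89 ± 0.09 in J saline and 7.90 ± 0.10 in NHsd saline. The change between treatments was 1.36 for the first set, or 1.18 with values under log2 4 set to 4, and 0.85 for the constitutive one. The difference between the sets within an array was 0.51 higher after cerulein as deposited, without overlap, with -1.60 to -0.82 on cerulein arrays and -1.85 to -1.63 on saline arrays. With values under log2 4 set to 4 it was 0.34 higher, and the treatments overlapped, with 5 of the 6 cerulein arrays above every saline array. The constitutive mean also moved against the array's own median, from which it differed by 2.62 ± 0.16 on cerulein arrays and 2.35 ± 0.06 on saline arrays (SD, n = 6 each).

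Markers of leukocytes moved with these sets. The 8 macrophage markers, Cd68 and Adgre1 among them, all rose, against 59.4% of all tested genes. Of these, 4 lay under log2 4 on every saline array, passed the filter through the cerulein arrays alone and had to differ. The median change of the 8 was 2.56 with values under log2 4 set to 4. Their summed linear signal was 2113 to 3173 in J cerulein, 2002 to 2348 in NHsd cerulein, 241 to 348 in J saline and 246 to 283 in NHsd saline. The 6 tested pan-leukocyte markers all rose as well, against the same 59.4% of all. Their sums were 932 to 1736 on cerulein arrays and 196.0 to 344 on saline arrays, and Rac2 was too low to test. Of the T and NK cell markers, Cd3e lay at 2.39 on every array, the lowest value in the table, and Cd3g, Cd3d, Cd2 and Nkg7 reached at most 3.51. Zap70, the single one tested, was under log2 4 on all cerulein arrays, so that it passed the filter through the saline arrays alone and had to be lower. The sums were 41.8 to 49.3 on cerulein arrays and 54.6 to 67.7 on saline arrays. Among B cell markers, Ms4a1 was under log2 4 on all saline and on the 3 J cerulein arrays and at least 1.50-fold higher in NHsd cerulein than in NHsd saline, Cd79a and Cd79b stayed under log2 4, and sums were 24.5 to 59.3 on cerulein arrays and 19.9 to 32.9 on saline arrays. The 5 acinar markers with a probe set, which mark the tissue as pancreas, all fell as deposited (against 10.1% of all tested genes) and with equal array medians (against 36.1%). After quantile normalization 3 of 5 fell (60%, against 34.1%). Their sums were 116753 to 163381 on cerulein arrays and 193502 to 197883 on saline arrays. The part of these cell types in the change of the proteasome genes was not tested. On J cerulein replicate 1, where Psmb8 and Psmb9 were highest, the macrophage sum was 2113, close to the 2179 of J cerulein replicate 3. Its acinar sum, 116753, was the lowest of all arrays. These are values of 1 array, and their relation to the proteasome genes was not tested.

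**Figure D4:**
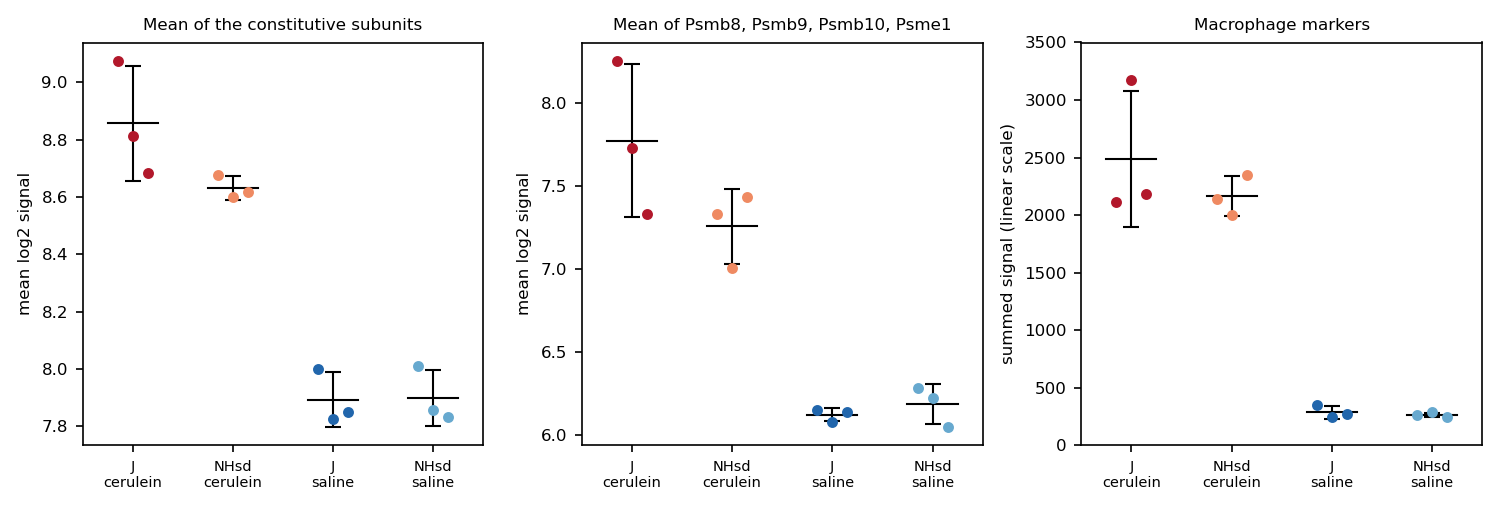
Mean log2 signal of the 31 constitutive subunits, mean log2 signal of the 4 immunoproteasome and PA28 genes, and summed linear signal of 8 macrophage markers, by array. Dots are arrays and bars the mean ± SD of 3 arrays per group; all 6 cerulein arrays lie above all 6 saline arrays in each panel.

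The alpha ring, which gates the entry to the core, had some of the largest rises. Psma1 measured 9.85, 9.69 and 9.45 in J cerulein, 9.29, 9.34 and 9.34 in NHsd cerulein, 8.25, 7.82 and 7.60 in J saline and 8.11, 7.59 and 7.76 in NHsd saline. Psma4 measured 9.68, 9.42 and 9.25 in J cerulein, 9.34, 9.11 and 9.34 in NHsd cerulein, 7.93, 8.07 and 7.82 in J saline and 7.94, 7.59 and 7.38 in NHsd saline. In both genes the treatments were separate, and the rises were 1.64 ± 0.13 for Psma1 (SE, limma adjusted p = 5.07e-07) and 1.57 ± 0.12 for Psma4 (3.17e-07). Psma3 measured 11.36, 11.10 and 10.92 in J cerulein, 10.99, 10.70 and 10.89 in NHsd cerulein, 9.73, 9.59 and 9.52 in J saline and 9.88, 9.47 and 9.51 in NHsd saline. Psma5 measured 10.08, 9.38 and 9.32 in J cerulein, 8.85, 9.22 and 8.94 in NHsd cerulein, 8.15, 8.02 and 8.26 in J saline and 8.28, 8.07 and 7.90 in NHsd saline. For Psma5, J cerulein stood above NHsd cerulein as well as above saline. All 7 tested alpha subunits rose, against 59.4% of all tested genes, and without overlap of the treatments, where 40.0% of all were entirely higher. The rises ran from 0.82 for Psma6 and Psma7 to 1.64, with Psma3 at 1.38 (limma adjusted p = 3.94e-07) and Psma5 at 1.19 (1.22e-05). With equal array medians 5 of the 7 rose (71.4%, against 26.6% of all). Psma6 and Psma7 then changed by 0.24 each (limma adjusted p = 0.111 and 0.0846). After quantile normalization all 7 rose, against 28.0% of all. Of the structural beta subunits, Psmb3 rose by 1.13, Psmb2 by 0.98, Psmb1 by 0.67 and Psmb4 by 0.59. The treatments overlapped for Psmb1 and Psmb4, which changed by 0.09 (limma adjusted p = 0.612) and 0.0056 (0.972) with equal array medians. For Psmb4 this holds for the chosen probe set. Its other kept probe set changed by 1.05 as deposited, without overlap, and was not fitted with equal array medians on its own. Psmb1 did not pass the test in NHsd (limma adjusted p = 0.148). Psmg2 measured 7.78, 7.60 and 7.32 in J cerulein, 7.43, 7.28 and 7.58 in NHsd cerulein, 6.36, 6.31 and 6.21 in J saline and 6.44, 5.997 and 6.38 in NHsd saline. It and the other tested chaperones that assemble the core were higher on every cerulein array than on any saline array, against 40.0% of all tested genes. They rose by 1.21 for Psmg2, 1.14 for Psmg3 and 0.69 for Psmg1, and Psmg1 changed by 0.11 (limma adjusted p = 0.489) with equal array medians.

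In the 19S cap the changes were smaller and less uniform. All 6 ATPases of the unfolding ring rose, against 59.4% of all tested genes, from 0.44 for Psmc3 to 1.30 ± 0.20 for Psmc6 (SE, limma adjusted p = 8.87e-05), but 1 of the 6 rose with equal array medians (16.7%, against 26.6% of all) and 3 after quantile normalization (28.0% of all), and Psmc3 turned to -0.14 with equal array medians. Psmc6 measured 8.75, 8.70 and 8.33 in J cerulein, 8.26, 7.66 and 8.47 in NHsd cerulein, 7.32, 7.21 and 6.84 in J saline and 7.37, 6.36 and 7.30 in NHsd saline. The treatments did not overlap, and NHsd was the more variable substrain. Psmd14, the subunit that cuts ubiquitin chains from the substrate, measured 7.96, 8.07 and 7.91 in J cerulein, 7.93, 7.76 and 7.85 in NHsd cerulein, 6.83, 6.63 and 6.57 in J saline and 6.44, 6.28 and 6.37 in NHsd saline. The treatments were separate by almost 1 log2 unit, and the rise of 1.39 ± 0.09 (SE, limma adjusted p = 1.04e-07) was the largest in the cap. Psmd1, a scaffold of the cap's base, rose by 1.05, its partner Psmd2 by 0.73 and the ubiquitin receptor Psmd4 by 0.69. With equal array medians Psmd2 changed by 0.15 (limma adjusted p = 0.19) and Psmd4 by 0.11 (0.407). The rises of 0.51 for Psmd8 and 0.57 for Psmd12 turned to -0.07 and -0.01 with equal array medians.

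Psmd6, a lid subunit, was the exception, measuring 10.78, 10.70 and 10.53 in J cerulein, 10.31, 10.56 and 10.27 in NHsd cerulein, 10.84, 10.66 and 10.77 in J saline and 10.79, 10.65 and 10.71 in NHsd saline. The NHsd cerulein arrays were the 3 lowest but for J cerulein replicate 3, which lay below the highest of them, and J overlapped. It fell by 0.21 ± 0.09 (SE, limma adjusted p = 0.0431) in the mean of both substrains and by 0.34 in NHsd (0.0318), and changed by -0.08 in J (0.568). Its other kept probe set gave -0.23, and the call was lost in 8 of the 12 fits without 1 array. Against the shift of all genes the fall was larger, at -0.79 (adjusted p = 9.16e-06) with equal array medians. Psmd13, another lid subunit, had a change of 0.16 that did not pass the test (limma adjusted p = 0.334) and was -0.42 (0.0151) with equal array medians.

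Among regulators, Psme4, a nuclear activator, rose by 0.73 (limma adjusted p = 9.47e-04), with its 4 kept probe sets between 0.21 and 1.04. Psme3, the nuclear member of the PA28 family, changed by 0.30 (0.106). Psmf1, an inhibitor of the core, changed by 0.02 (0.847), with values between 5.06 and 5.50 on all arrays and 5 arrays at the identical value of 5.22. Of the chaperones of cap assembly, Psmd10, also called gankyrin, rose by 0.99 and Psmd9 by 0.50 (limma adjusted p = 0.0465), the last with 2 saline arrays under log2 4 and lost in 9 of the 12 fits without 1 array, and Psmd5 changed by 0.33 (0.0711). With equal array medians Psmd9, Psmd5, Psme3 and Psmf1 were at -0.08, -0.25, -0.28 and -0.56. Psme4 was then at 0.15 and did not pass the test (limma adjusted p = 0.342). For the 15 genes with 2 or more kept probe sets, the other probe sets changed in the same direction as the chosen one.

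Within J, 39 of the 44 genes rose after cerulein, where 47.8% of all tested genes rose, and 0 fell, where 7.61% fell (55.4% in either direction). The median change was 0.92, against 0.47 over all tested genes. Outside the immunoproteasome, PA28 and constitutive catalytic genes, the largest rises were those of Psma1 (1.78), Psma4 (1.51), Psma3 (1.51), Psmc6 (1.47) and Psma5 (1.45), the last with a limma adjusted p of 8.65e-05. Within NHsd, 32 rose, where 48.6% of all tested genes rose, and 1 fell, where 6.6% fell (55.2% in either direction), with a median change of 0.67 against 0.49. Outside the immunoproteasome, PA28 and constitutive catalytic genes, the largest rises there were those of Psma4 (1.63), Psma1 (1.502), Psmd14 (1.48), Psma3 (1.24) and Psmg2 (1.15), the last with a limma adjusted p of 1.32e-04. With equal array medians, 19 rose and 2 fell in J, against 20.9% and 29.4% of all tested genes (50.3% in either direction), and 9 rose and 4 fell in NHsd, against 20.2% and 28.8%. After quantile normalization, 21 rose and 2 fell in J, against 21.8% and 27.3%, and 12 rose and 4 fell in NHsd, against 21.3% and 26.5%.

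The test of the difference between those effects called 0 of the 44 genes (limma, adjusted p below 0.05), where it called 0.0118% of all tested genes; 4 had an unadjusted p below 0.05, against 7.03% of all. The difference, J minus NHsd, had a median of 0.27 and was positive in 34 of the 44, against -0.01 and 49.1% over all tested genes. Psmb8 had the smallest p, with a difference of 1.11 (95% interval 0.18 to 2.04, limma adjusted p = 0.702), followed by Psma7 with 0.57 (0.702) and Psmd8 with 0.58 (0.702). Psmd7, a lid subunit, was the other gene with an unadjusted p below 0.05, at 0.70 (adjusted 0.708). J cerulein replicate 1 weighed on the size of these values: without it the median difference was 0.15 and that of Psmb8 0.70, and the median change in J was 0.78. The difference was then positive in 36 of the 44 genes, against 46.9% of all tested genes.

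After cerulein, J minus NHsd was positive in 40 of the 44 genes, with a median of 0.24, against 57.5% and 0.05 over all tested genes. None passed the test (limma), which called 0.223% of all tested genes, and 7 had an unadjusted p below 0.05, against 9.41% of all. Psmb8 was 0.91 higher in J cerulein than in NHsd cerulein (95% interval 0.25 to 1.57, limma adjusted p = 0.374), Psma5 0.59 (0.378) and Psmb4 0.48 (0.391). Without J cerulein replicate 1 the median was 0.08, against 0.04 over all tested genes, and Psmb8 differed by 0.50. Then 37 of the 44 were positive, against 58.1% of all tested genes. In saline, where the test (limma) called 0 of the 44 genes and 0.0588% of all (0.047% as lower in J), 21 of the 44 were higher in J and the median was -0.01, against 61.5% and 0.06 over all tested genes. Unadjusted p was below 0.05 for 2 genes, against 6.41% of all, which were Psmd7 at -0.59 (limma adjusted p = 0.682) and Psmd14 at 0.31 (0.692). Psmc4 followed at 0.45 (0.765).

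**Figure D5:**
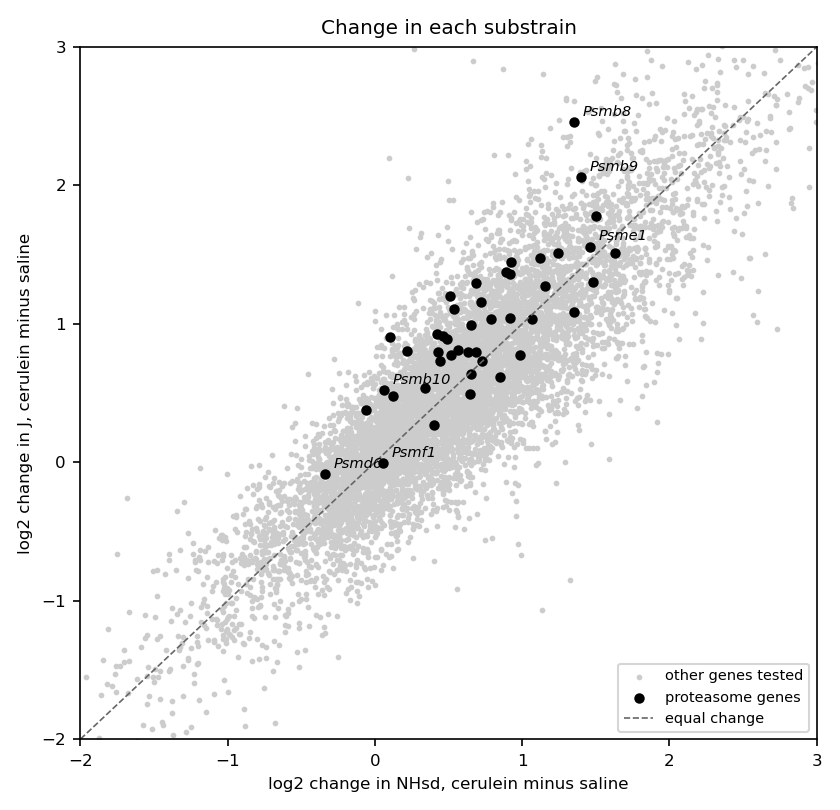
Log2 change, cerulein minus saline, in J against that in NHsd, for the 44 proteasome genes (black) and the other tested genes (grey). The dashed line marks equal change, and genes beyond the axes are not drawn; 34 of the 44 black points lie above the line, Psmb8 farthest.

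Genes that act with the proteasome but lie outside the naming rule are given by list. Of 11 tested partners, 9 rose (81.8%, against 59.4% of all tested genes) and 0 fell (against 10.1%), with a median of 0.85 against 0.49 over all genes. Zfand5, which binds and stimulates the proteasome, rose by 1.97 (limma adjusted p = 1.01e-07), Pomp, the maturation factor of new cores, by 1.41 (5.05e-06), and Usp14, the ubiquitin-cutting enzyme of the cap, by 1.11 (1.37e-05). With equal array medians, 6 of the 11 rose (54.5%, against 26.6% of all) and 2 fell (18.2%, against 36.1%). Of 6 genes that control proteasome genes or process that signal, 2 rose (33.3%, a smaller share than the 59.4% of all tested genes): Nfe2l2, the regulator of the antioxidant response, by 2.33 ± 0.12 (SE, limma adjusted p = 2.13e-08), and Vcp, the ATPase that extracts ubiquitinated proteins, by 0.74 (1.47e-04). Nfe2l1, which raises subunit genes when the proteasome is blocked, changed by 0.16 (0.24). Of these 6, 1 rose and 4 fell with equal array medians (66.7%, against 36.1% of all). Of 6 tested ubiquitin and shuttle factors, 3 rose (50%, near the 59.4% of all), namely Ufd1 by 0.64, Rad23b by 0.49 and Ubqln1 by 0.35, and with equal array medians 0 rose and 3 fell (50%, against 36.1% of all).

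In the MHC class I pathway, which uses the peptides of the immunoproteasome, 10 of 11 tested genes rose (90.9%, against 59.4% of all) and 0 fell (against 10.1%), with a median of 1.33, or 0.97 with values under log2 4 set to 4. With equal array medians 6 rose (54.5%, against 26.6%) and 1 fell (9.09%, against 36.1%). Of the 11, H2-M3 lay under log2 4 on every saline array, so that it passed the filter through the cerulein arrays alone and had to differ. Its place in these counts is no separate support. Pdia3, a chaperone of the loading complex, rose by 2.12 (limma adjusted p = 1.58e-07), B2m, the light chain, by 1.97 (1.81e-07) and H2-D1, a heavy chain, by 1.57 (7.48e-07). The transporter subunit Tap2 was dim, under log2 4 on the 3 J saline arrays, and at least 1.29-fold higher in J cerulein than there; in NHsd it changed by 0.09 (limma adjusted p = 0.701). Its mean change was -0.21 with equal array medians. Tap1, which shares its start region with Psmb9, was too low to test and reached at most 4.16. Of 12 tested genes of interferon gamma signalling and response, 11 rose (91.7%, against 59.4% of all) and 0 fell (against 10.1%), with a median of 1.15. With equal array medians 8 of these 12 rose (66.7%, against 26.6%) and 1 fell (8.33%, against 36.1%). The guanylate-binding protein Gbp2 rose by 1.89 (limma adjusted p = 2.55e-05). The factor Irf8 lay under log2 4 on all saline arrays, so that it too passed the filter through the cerulein arrays alone and had to differ. Its level was at least 2.90-fold higher in J cerulein than in J saline and at least 2.41-fold higher in NHsd cerulein than in NHsd saline. Gbp3 lay under log2 4 on 5 of the 6 saline arrays, with a level at least 4.09-fold higher in J cerulein than in J saline. Irf1, a factor that binds the promoters of immunoproteasome genes, changed by -0.14 (limma adjusted p = 0.432) as deposited, and fell with equal array medians, by 0.73 (4.55e-04), and after quantile normalization, by 0.72 (5.99e-04). Ifng itself lay at 2.39 on every array, the lowest value in the table.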

How the data were processed

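RNA of 12 mouse pancreases was measured on Affymetrix arrays. Signals were deposited on the log2 scale, 1 per probe set, and made by the authors with GCRMA and Partek per the submitters' processing notes; versions and further steps are not given in the sources used here. Of 45101 probe sets, 34958 were annotated to 1 gene, 932 to several, which leaves out Psme2, and 9211 to none. Values were used as deposited, and those under log2 4 were treated as near background. A gene was kept where 3 or more arrays lay above log2 4, which left 8505 of 18194.

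Tests used limma (3.58.1, under R 4.3.3), with 1 mean per group over all 12 arrays, an intensity trend (8 residual degrees of freedom, median prior 4.37) and Benjamini-Hochberg adjustment over the 8505 genes, called below 0.05. Differences between paired subunits used exact permutation tests over arrays. Each array is a separate mouse, and the number of arrays limits the precision. Members and lists were chosen with earlier results of these data known. Named were the immunoproteasome, PA28 and constitutive catalytic genes, the 5 other members with the largest called rise or fall in each cerulein comparison, the 3 with the smallest p in the substrain comparisons, members not tested, and up to 3 genes of each list; further genes were named after their values were seen. On simulated data of 8505 genes, the share of changed genes recovered for the mean of both substrains was 65.7% at 1.5-fold, 97% at 2-fold and 100% at 4-fold, within J 5.97, 67.2 and 100%, and for the difference of effects 1.49, 29.9 and 98.5%. Far fewer genes were changed there than the 69.4% called here in the mean. The adjusted cutoff was therefore stricter, and the shares for the mean and for J do not carry over to these data. For the difference of effects, more genes were changed in the simulation than the 0.0118% called here. Its adjusted cutoff was therefore looser than in these data, and those shares do not carry over either. Same-numbered arrays of different groups correlated between -0.16 and 0.34 after removing group means, so the numbers were not taken as pairs. Promoters came from RefSeq. Other steps ran in Python 3.11.15 (numpy 2.4.6, pandas 2.3.3). Alternatives were 2 other scalings (equal array medians, quantile normalization), filters at none and at log2 6, moderation without a trend or made robust, averaged probe sets, fits of the compared groups alone, a replicate block and fits without 1 array. Setting values under log2 4 to 4 was added after the data were seen.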

Additional observations from a re-analysis of the deposited data

How the results depend on the processing

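Scaling moved the counts most. In the mean of both substrains 39 genes rose as deposited, 18 with equal array medians and 22 after quantile normalization; in J (39 as deposited) 19 and 21 rose, and in NHsd (32) 9 and 12. Falls (1, 0 and 1 as deposited) became 4, 2 and 4 with equal medians and 3, 2 and 4 after quantile normalization, and the fall of Psmd6 in the mean was lost (0 falls) with a filter at log2 6 and with no intensity trend, which also left 0 in NHsd. Directions turned in the mean, with equal medians and quantile normalization, for Psmb10 (-0.29, -0.17), Psmc3 (-0.14, -0.0405), Psmd13 (-0.42, -0.42), Psmd5 (-0.25, -0.25), Psmd9 (-0.0781, -0.0845), Psme3 (-0.28, -0.29) and Psmf1 (-0.56, -0.56), and with equal medians alone for Psmd12 (-0.0095) and Psmd8 (-0.0697); among the genes followed by substrain, in J for Psmb10 (-0.0575, equal medians) and in NHsd for Psmb10 (-0.52, -0.40) and Psmb6 (-0.12, -0.0053). Over all 44, equal medians turned 9 genes in the mean, 6 in J and 16 in NHsd (5, 3 and 6 of them called as deposited), and quantile normalization 7, 3 and 13 (3, 0 and 3). Both settings take out the shift common to the arrays by construction; which scaling is right was not tested. Leaving out each array in turn gave 37 to 40 rises and 0 to 1 falls in the mean, 36 to 39 and 0 to 0 in J, 27 to 35 and 0 to 1 in NHsd, and 0 to 0 calls in the substrain comparisons. In such fits Psmf1 ranged from -0.026 to 0.0841 in the mean and Psmb10 from -0.0328 to 0.2205 in NHsd. The paired differences ranged from 0.81 to 1.07 for Psmb8 minus Psmb5, 0.97 to 1.12 for Psmb9 minus Psmb6 as deposited and -1.11 to -0.80 for Psmb10 minus Psmb7, and the difference of the sets from 0.43 to 0.58. With the replicate number as a block, 40 genes rose and 1 fell in the mean, 39 and 0 in J and 34 and 1 in NHsd, and Psmd5 passed. Psmb10 and Psmd9 were lost with no filter. Values near log2 4 limit Psmb7, Psmb9 and Psmd9.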
